A study of Rattus norvegicus with 8 samples.

Results

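The EGF receptor system was followed through 10 genes: the ligands Hbegf, Areg, Ereg, Tgfa and Btc, the receptors Egfr, Erbb2 and Erbb3, the receptor inhibitor Errfi1 and the protease Adam17. A probe set, the group of short probes that reads 1 transcript on an Affymetrix rat array, belonged to the set when its platform gene symbol was exactly one of these names. This gave 10 of the 20242 probe sets in the table, for 8 genes. The rule itself uses names only, while the genes were proposed with earlier results of these data known. A filter on low values left 9 of the 10 for testing, at least 1 for each gene. Tgfa and Egfr were each read by 2 probe sets and the other 6 genes by 1. Btc and Erbb3 were not analysed here.

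RNA came from the dorsal-caudal lung quadrant, and the animals were male Sprague-Dawley rats of 340 to 400 g. Of the 8 samples, 2 came from rats that were not ventilated (control), 3 from rats ventilated prone and 3 from rats ventilated supine. Ventilated rats of both positions were anaesthetised, had a tracheotomy and received breaths of 18 mL per kg, 40 a minute, with a positive end-expiratory pressure of 0 cmH2O, for 3 hours at most. No source used here says whether control rats also had the anaesthesia and surgery. Supine titles carry SVt and prone titles HVt, and the condition label, which gives high Vt for both, was followed. The labels call each sample a biological replicate, and groups of 2, 3 and 3 limit the precision of every value below. All values are on the log2 scale, so a difference of 1 is a doubling.

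Ligands of this family are made as proteins anchored in the cell membrane and are released by proteases, chiefly ADAM17. They bind EGFR or its relatives, which pair, phosphorylate each other and signal through Ras to the kinase ERK and through PI3-kinase. ERBB2 binds no known ligand and acts as a partner of the other receptors, and ERRFI1, also called MIG6, is made after receptor activation and blocks the kinase domain. In lung epithelium this system is known for its part in wound repair and in the response of cells to stretch.

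One library differed from the rest in a measure of RNA quality, the gap between 3′ and 5′ control probe sets. On supine replicate 3 this gap was 9.10 for beta-actin (3.16 to 4.64 elsewhere) and 8.41 for GAPDH (0.70 to 1.92 elsewhere). It held the highest or the lowest of the 8 values for 6 of the 8 members (4 highest, 2 lowest). Over all 16896 tested probe sets the same array held the highest or lowest value for 36.3%. Supine replicate 1, without such wide gaps, held it for 35.5% of all tested probe sets and for 0 members. Control replicate 1 held the highest value for 1 member and the lowest for 5, against 21.7% of all tested probe sets. The part of RNA quality in the results was not tested. The supine difference from controls without supine replicate 3 is given for each of the 8 genes. Of the cell markers, all 7 neutrophil genes were higher in every ventilated lung than in both controls. The same held for 12.9% of all tested probe sets. Mmp8, Mmp9 and Cxcr2, at 2.23 to 3.81 in controls, passed the filter on low values only through ventilated arrays. They could thus be called only as higher. The summed neutrophil level was 14.91 to 16.71 in prone, 14.84 to 16.56 in supine and 13.23 to 13.51 in control lungs. The summed level of 4 tested lymphocyte markers was 7.27 to 9.63 in prone, 8.69 to 10.48 in supine and 10.64 to 11.90 in control lungs. The 5 tested mesothelial markers summed to 8.78 to 10.59 in prone, 8.27 to 9.14 in supine and 11.75 to 11.86 in control lungs. One of them, Bnc1, fell by 3.75 over all ventilated lungs (limma adjusted p = 0.00757). Bnc1 read 6.88 and 6.60 in controls and 2.69 to 3.11 in ventilated lungs. It passed the filter on low values only through the controls, so it could be called only as lower. The erythroid marker Alas2, an enzyme of heme synthesis, read 7.10 and 7.08 in controls, 9.60, 10.86 and 11.03 in prone and 8.44, 9.47 and 10.14 in supine lungs. The summed level of 3 cardiac muscle markers was 10.76 on prone replicate 2, 9.89 on supine replicate 3 and 5.11 to 5.65 on the other arrays. Of these markers, Myh6 and Tnni3 passed the filter on low values only through these 2 high arrays. Alveolar type 2 markers, led by the surfactant proteins, were high on all arrays (summed level 16.33 to 17.08), as the lung label has it. Fewer cells of a type and less RNA per cell cannot be told apart in such bulk tissue.

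The upstream sequences of 3 members are shown because these genes, Hbegf, Areg and Errfi1, had the largest differences between ventilated and control lungs among the members. Each is the 250 bases before the annotated start, 5′ to 3′ on the gene's strand, from RefSeq (rat assembly GRCr8, minus strand for Hbegf and Areg and plus strand for Errfi1). The windows are chr18:28390221-28390470 for Hbegf, chr14:17265642-17265891 for Areg and chr5:166606591-166606840 for Errfi1. Capitals mark matches to any of 6 motifs, searched on both strands.
Hbegf upstream: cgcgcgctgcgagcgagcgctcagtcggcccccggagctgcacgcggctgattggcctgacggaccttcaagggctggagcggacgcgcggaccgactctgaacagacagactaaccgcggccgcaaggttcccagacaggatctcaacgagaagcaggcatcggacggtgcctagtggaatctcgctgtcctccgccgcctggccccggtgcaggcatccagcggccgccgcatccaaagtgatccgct
Areg upstream: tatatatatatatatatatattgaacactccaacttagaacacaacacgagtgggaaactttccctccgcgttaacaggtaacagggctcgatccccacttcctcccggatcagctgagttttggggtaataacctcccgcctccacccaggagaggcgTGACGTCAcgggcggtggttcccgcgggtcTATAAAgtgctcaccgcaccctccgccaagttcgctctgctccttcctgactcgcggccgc
Errfi1 upstream: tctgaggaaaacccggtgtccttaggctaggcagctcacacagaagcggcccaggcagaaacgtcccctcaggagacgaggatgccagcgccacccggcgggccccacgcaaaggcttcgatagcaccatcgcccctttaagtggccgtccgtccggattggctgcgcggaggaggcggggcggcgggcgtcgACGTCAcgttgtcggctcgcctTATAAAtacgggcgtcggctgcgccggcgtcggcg

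The Areg window held a full cAMP response element (TGACGTCA, read alike on both strands) that began 91 bases before the start, and a TATA box (TATAAA) 61 bases before it. The full element occurred in 1.59% of 33469 upstream windows of this length. The Errfi1 window held the core of that element (TGACGT, on the opposite strand) from 57 bases before the start and a TATA box from 35 bases before it. The core, which the full element contains, occurred in 6.95% of windows and TATAAA in 12.9%. No match to the other motifs lay in these 3 windows: the AP-1 site TGANTCA (6.34% of windows), the heat shock unit GAANNTTC (7.23%) and the CArG box of serum response factor (1.5%). The Hbegf window held none of the 6. A match or its absence says only which letters stand there. RefSeq windows were found for 8 of the 10 genes, and those of Ereg and Erbb3 were not among them.

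Hbegf, Areg and Errfi1 had higher means in ventilated than in control lungs, by 2.39, 2.07 and 1.50, and Erbb2 had a lower one (-1.11). The mean of Ereg was also higher (1.45), but 2 ventilated arrays alone carried this gene past the filter on low values. Egfr, Tgfa and Adam17 differed by less than 1 log2 unit in every comparison. These values are for the standing probe set, the one with the highest mean of a gene. None of the 8 genes passed limma's test with Benjamini-Hochberg adjustment over all 16896 tested probe sets in any comparison. Few probe sets did: 0.0533% passed in prone against control, 0.0533% in supine against control, 0.142% in all ventilated lungs against control, and 0% in supine against prone. At an unadjusted p under 0.05 the members counted 2 of 8 in prone (Hbegf and Errfi1), 2 in supine (Hbegf and Areg) and 3 in all ventilated lungs (these 3 genes), all higher. The same threshold took 17.7%, 15.2% and 19.2% of all tested probe sets. With the replicate number as a block, these member counts were 1, 0 and 1, and no probe set passed any comparison after adjustment.

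**Figure D1:**
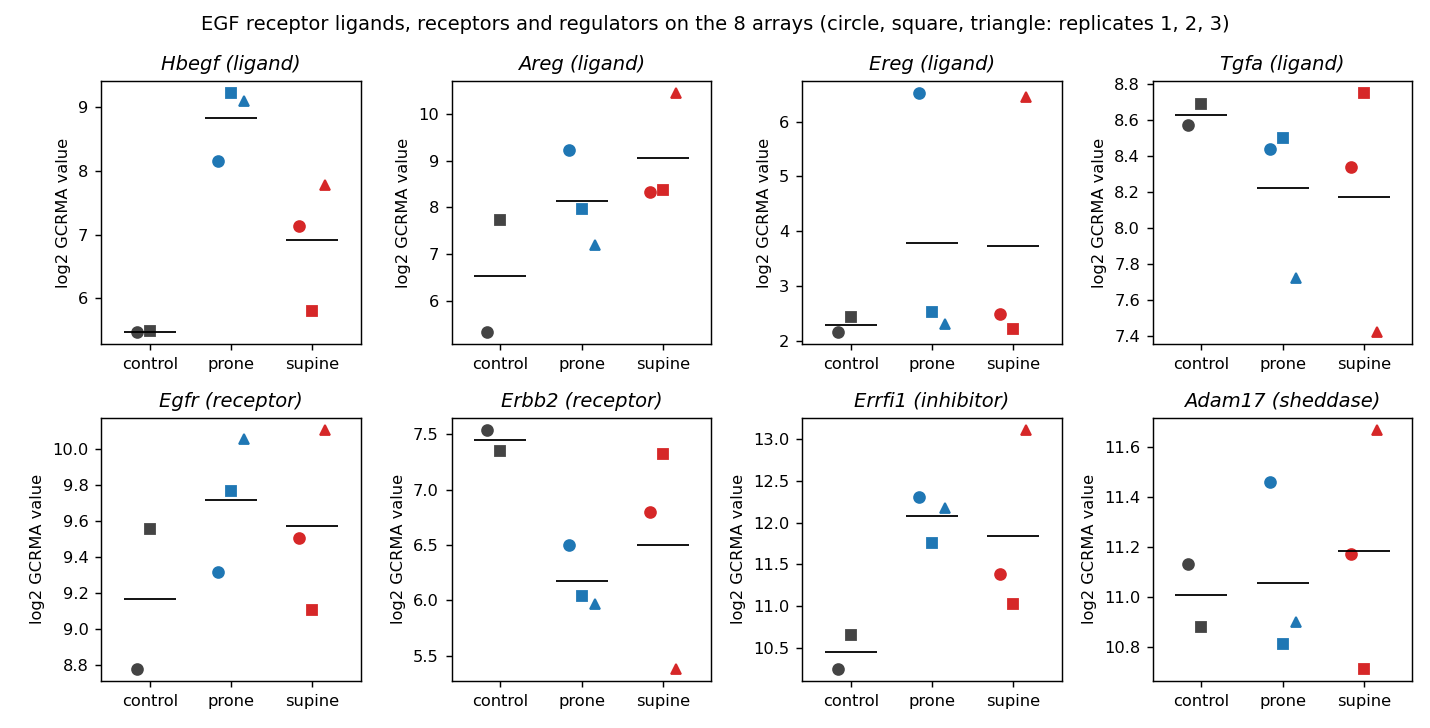
Log2 value of each member on each array, by group (control, n = 2; prone, n = 3; supine, n = 3); symbols give the replicate number and bars the group mean. Hbegf on the 3 prone arrays (8.15 to 9.22) lay above the supine arrays (5.81 to 7.78) and the controls (5.47 and 5.49), and Ereg was near 6.5 on 2 arrays and at 2.52 or below on the other 6.

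Hbegf encodes heparin-binding EGF-like growth factor, a ligand of EGFR that is also held at the cell surface by heparan sulphate. It read 5.47 and 5.49 in the control lungs. It read 8.15, 9.22 and 9.10 in prone lungs and 7.14, 5.81 and 7.78 in supine lungs, replicates 1 to 3. The 3 groups did not overlap: every prone array lay above every supine array, and every supine array above both controls.

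Prone lungs averaged 8.82 ± 0.59 (SD, n = 3) against 5.48 ± 0.02 (n = 2) in controls, a difference of 3.34 ± 0.60 (SE; 95% confidence interval 1.94 to 4.74; limma adjusted p = 0.0924), or 10.1-fold. A difference this large or larger was found for 0.763% of tested probe sets. The 2 control values lay 0.02 apart, while limma uses 1 spread for all groups. The adjusted p passed the threshold in 3 of the alternatives run for prone lungs: 0.0493 with only the groups compared, 0.0463 without supine replicate 2, and 0.00104 with array quality weights. It was 0.127 with the replicate block, and 0.68 and 0.553 without control replicates 1 and 2, where 1 control is left. Of all 16896 tested probe sets, 119 passed with only the groups compared, 65 without supine replicate 2 and 5724 with array quality weights, against 9 as reported. The Hbegf difference itself lay between 3.06 and 3.68 in all alternatives.

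Supine lungs averaged 6.91 ± 1.00 (SD, n = 3) for Hbegf, which was 1.43 ± 0.60 above controls (SE; interval 0.03 to 2.83; adjusted p = 0.321), or 2.69-fold. Supine replicate 2, at 5.81, was only just above the controls. Without supine replicate 3 the difference was 1.00 (adjusted p = 0.585). Over all ventilated lungs Hbegf was 2.39 ± 0.54 higher than in controls (interval 1.14 to 3.64; adjusted p = 0.107), and 2.66 higher when supine replicate 2 was left out (adjusted p = 0.0384). With array quality weights it was 2.47 higher (adjusted p = 0.00333). In these 2 alternatives 381 and 4704 of all 16896 tested probe sets passed.

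Between body positions, Hbegf was the 1 member with a difference at an unadjusted p under 0.05, a share of the 8 genes to be read against 4.09% of all tested probe sets. Supine lungs were 1.91 ± 0.54 below prone lungs, 3.77-fold (interval -3.16 to -0.66), and this ranked 69 of 16896 by p. After adjustment it did not pass (limma adjusted p = 0.942), as for every other probe set. The difference ranged from -2.35 without supine replicate 3 to -1.36 without supine replicate 2. Groups that did not overlap, with supine lower, were found for 2.11% of probe sets. Beside these values, the summed neutrophil level was 13.51 and 13.23 in controls, 16.71, 14.91 and 15.46 in prone and 16.56, 15.42 and 14.84 in supine lungs. Alas2 (values above) was, like Hbegf, lowest in controls, and its mean was higher in prone than in supine lungs. The part of these markers, and of the cardiac markers on prone replicate 2, in the Hbegf difference was not tested.

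Areg encodes amphiregulin, a ligand of EGFR with lower affinity, made by epithelium and by several immune cells and known for tissue repair. The controls read 5.32 and 7.72, the widest gap between the controls among the members. Prone lungs read 9.22, 7.97 and 7.19 and supine lungs 8.33, 8.38 and 10.45. All 3 supine arrays were above both controls, while prone replicate 3 was below control replicate 2.

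The supine mean of Areg was 9.05 ± 1.21 (SD, n = 3) against 6.52 ± 1.70 (n = 2) in controls, a difference of 2.54 ± 0.97 (SE; interval 0.28 to 4.79; adjusted p = 0.299), or 5.81-fold. It was 1.84 without supine replicate 3, and 1.34 or 3.74 without control replicate 1 or 2. The prone mean was 8.13 ± 1.02 (SD), which is 1.61 ± 0.97 above controls (SE; interval -0.65 to 3.87; adjusted p = 0.432). Without control replicate 1 that difference was 0.41, and without control replicate 2 it was 2.81, so single controls decided its size. Over all ventilated lungs the difference of 2.07 ± 0.87 (adjusted p = 0.252) became 0.87 and 3.27 in the same way. Supine against prone stood at 0.93 ± 0.87 (interval -1.09 to 2.95; adjusted p = 0.942), and at 0.23 without supine replicate 3.

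Ereg encodes epiregulin, a ligand of EGFR and ERBB4. It read 2.16 and 2.43 in controls, 6.52, 2.52 and 2.31 in prone and 2.50, 2.22 and 6.45 in supine lungs. The transcript was thus high on prone replicate 1 and supine replicate 3 alone, and the other 6 values lay at the low end of the scale, where 2.75% of all values in the table were under 2.6. Areg was highest on the same 2 arrays, at 9.22 and 10.45. These 2 arrays also carried Ereg past the filter on low values, which asks for log2 5 on 2 arrays. The group differences were 1.48 ± 1.60 for prone and 1.43 ± 1.60 for supine against control (adjusted p = 0.663 and 0.672), and -0.06 ± 1.43 between positions. Without prone replicate 1 the prone difference was 0.11, and without supine replicate 3 the supine difference was 0.06.

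Tgfa encodes transforming growth factor alpha, a ligand of EGFR alone. It read 8.57 and 8.69 in controls, 8.44, 8.50 and 7.72 in prone and 8.34, 8.75 and 7.42 in supine lungs. The prone arrays all lay below the controls and the supine ones did not. The difference was -0.41 ± 0.45 in prone and -0.46 ± 0.45 in supine lungs (adjusted p = 0.668 and 0.625), or -0.09 in supine lungs without supine replicate 3. The second probe set, on a lower level, pointed the same way with -0.77 ± 0.73 and -1.02 ± 0.73. Both read lowest on supine replicate 3.

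Among the receptors, Egfr read 8.78 and 9.56 in controls, 9.32, 9.77 and 10.06 in prone and 9.51, 9.11 and 10.11 in supine lungs, and the 3 groups overlapped. The prone difference was 0.54 ± 0.43 (interval -0.45 to 1.54; adjusted p = 0.545) and the supine one 0.41 ± 0.43 (interval -0.59 to 1.40; adjusted p = 0.649). Without control replicate 1 these differences were 0.15 and 0.02, and without control replicate 2 they were 0.94 and 0.80. Without supine replicate 3 the supine difference was 0.14. The second Egfr probe set lay between 2.76 and 3.91 on all arrays and was not tested.

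Erbb2, the partner receptor, had its highest values in the controls. The controls read 7.54 and 7.35. Prone lungs read 6.50, 6.04 and 5.97 and supine lungs 6.80, 7.32 and 5.38, so that all 6 were below both controls, supine replicate 2 by the smallest margin.

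The prone mean of Erbb2 was 6.17 ± 0.28 (SD, n = 3) against 7.45 ± 0.13 (n = 2), a difference of -1.27 ± 0.55 (SE; interval -2.55 to 0.01; adjusted p = 0.283). In supine lungs it was -0.95 ± 0.55 (interval -2.23 to 0.33; adjusted p = 0.428), and -0.39 without supine replicate 3. Over all ventilated lungs it was -1.11 ± 0.49 (adjusted p = 0.272). Array quality weights brought the prone and the ventilated comparison past the threshold (adjusted p = 0.00817 and 0.0189), as for 5724 and 4704 of all 16896 tested probe sets. Beside this, 5 of 6 tested alveolar type 1 markers were lower in every ventilated lung than in both controls, as were 16.7% of all tested probe sets. The other, Pdpn, was higher in every ventilated lung, at 12.75 to 13.47 against 12.50 and 12.39. The summed level of the list was 15.12 to 15.64 in prone, 15.11 to 15.57 in supine and 15.86 to 15.90 in control lungs. For alveolar type 2 markers it was 16.33 to 16.83, 16.62 to 16.98 and 16.94 to 17.08. No marker of these 2 lists was near the low end of the scale, the lowest value being 5.93. Their part in the Erbb2 difference was not tested.

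Errfi1, the feedback inhibitor, was higher in every ventilated lung than in both controls. It read 10.25 and 10.66 in controls, 12.31, 11.75 and 12.17 in prone and 11.39, 11.03 and 13.11 in supine lungs. The prone values lay close together and the supine ones were spread over 2 log2 units, with replicate 3 on top.

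The prone mean of Errfi1 was 12.08 ± 0.29 (SD, n = 3) against 10.46 ± 0.29 (n = 2), a difference of 1.62 ± 0.60 (SE; interval 0.21 to 3.02; adjusted p = 0.228), or 3.07-fold. The supine difference was 1.38 ± 0.60 (interval -0.02 to 2.79; adjusted p = 0.334), and 0.75 without supine replicate 3. Over all ventilated lungs it was 1.50 ± 0.54 (interval 0.24 to 2.76; adjusted p = 0.204), between 1.16 and 1.71 in the alternatives. With array quality weights the prone and the ventilated comparison passed (adjusted p = 0.0119 and 0.017), as for 5724 and 4704 of all 16896 tested probe sets. The positions differed by -0.23 ± 0.54 (interval -1.49 to 1.02), and by -0.87 without supine replicate 3.

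Adam17, the protease that releases most of these ligands, read 11.13 and 10.88 in controls, 11.46, 10.81 and 10.90 in prone and 11.17, 10.71 and 11.67 in supine lungs. The groups overlapped in every comparison. The differences of 0.05 ± 0.38 for prone (interval -0.82 to 0.93) and 0.18 ± 0.38 for supine lungs (interval -0.70 to 1.05) were small against their errors. The prone one turned negative in 4 alternatives, and the supine one in 1, to -0.07 without supine replicate 3. Array measurements of its transcript do not report protease activity.

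**Figure D2:**
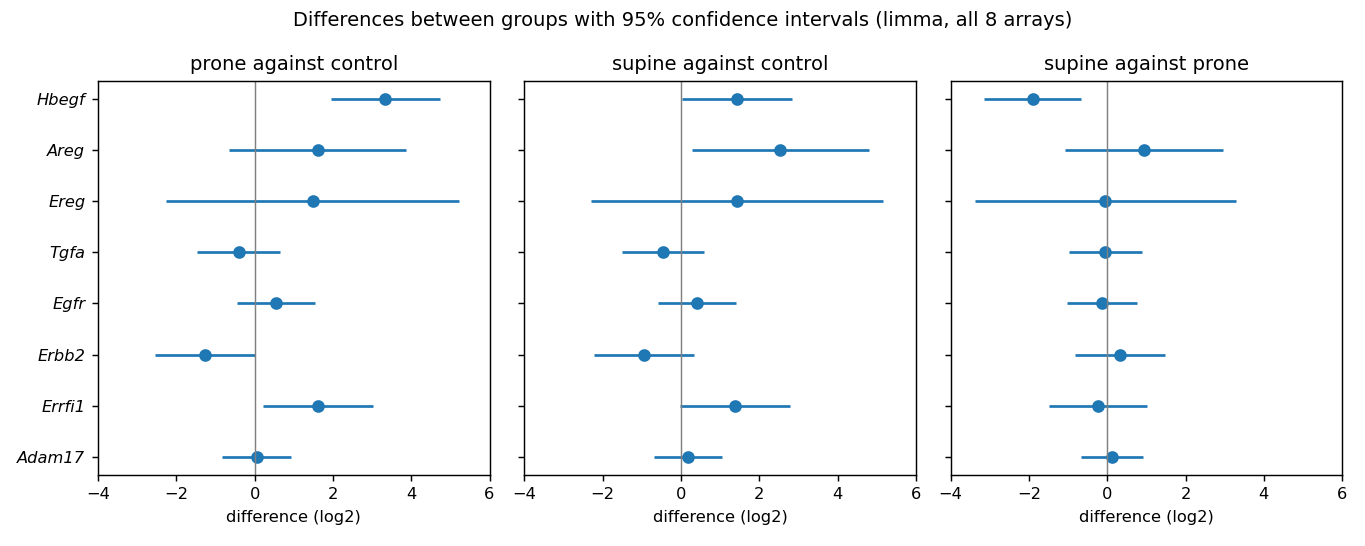
Difference between group means on the log2 scale for each member, with 95% confidence intervals of the limma model over 8 arrays. The intervals of Hbegf lay away from 0 in all 3 panels, though in supine lungs against control the lower end was 0.03. Those of Ereg were the widest. Those of Ereg, Tgfa, Egfr, Erbb2 and Adam17 held 0 in all 3 panels. The interval of Areg lay away from 0 only in supine against control, and that of Errfi1 only in prone against control.

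By separation of the groups, prone arrays lay wholly above the controls for 2 members (Hbegf and Errfi1) and wholly below them for 2 (Tgfa and Erbb2). The shares over all tested probe sets were 20.9% higher and 27.7% lower. Supine arrays lay wholly above for 3 (Hbegf, Areg and Errfi1) and below for 1 (Erbb2), against 20.0% and 21.8% of all tested probe sets. With all 6 ventilated arrays together 2 members were wholly higher and 1 wholly lower, against 12.9% and 16.7%. Between positions 0 members were wholly higher in supine lungs (3.78% of all) and 1, Hbegf, wholly lower. The median over the 8 genes was 1.01 in prone and 0.89 in supine lungs, where the median over 10240 tested genes was -0.152 and -0.070. The 8 include Ereg, which passed the filter on low values through 2 ventilated arrays alone. These member counts are small, and both comparisons share the same controls.

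The genes of nearest pattern were sought for the 3 members whose SD over the 8 arrays was 1 or more, by the root mean square difference over 8 arrays after each gene was centred on its own mean, among 10239 other tested genes. For Hbegf these were Dedd2, a death effector domain gene, at 0.37 log2 units, and Dnajb1, an Hsp40 co-chaperone of the heat shock response, at 0.44. Dnajb1 read 10.18 and 10.98 in controls, 13.13, 14.60 and 14.63 in prone and 11.81, 11.82 and 12.69 in supine lungs, in the same order of groups as Hbegf. Because Dnajb1 was picked for its likeness to Hbegf, this shared order is no separate result. The fellow member nearest to Hbegf was Errfi1, at 0.97.

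Areg was nearest to the zinc finger gene Tshz3 (0.67) and to Ackr2, a decoy receptor that takes up chemokines (0.69), and Errfi1 was again the nearest member (0.90). Ackr2 read 4.02 and 4.84 in controls and passed the filter on low values only through ventilated arrays. The filter thus favours its likeness to Areg. Ereg was nearest to Trib1, a pseudokinase gene (0.62), and to the early response factor Egr2 (0.92). Trib1 read 5.66 on prone replicate 1 and 7.52 on supine replicate 3, and 2.66 to 3.82 on the other arrays. Like Ereg, it passed the filter on low values only through these 2 arrays, so the filter itself favours this likeness. Supine replicate 3 is also the array with the wide 3′ to 5′ gaps. The nearest member to Ereg was Areg, at 1.18.

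**Figure D3:**
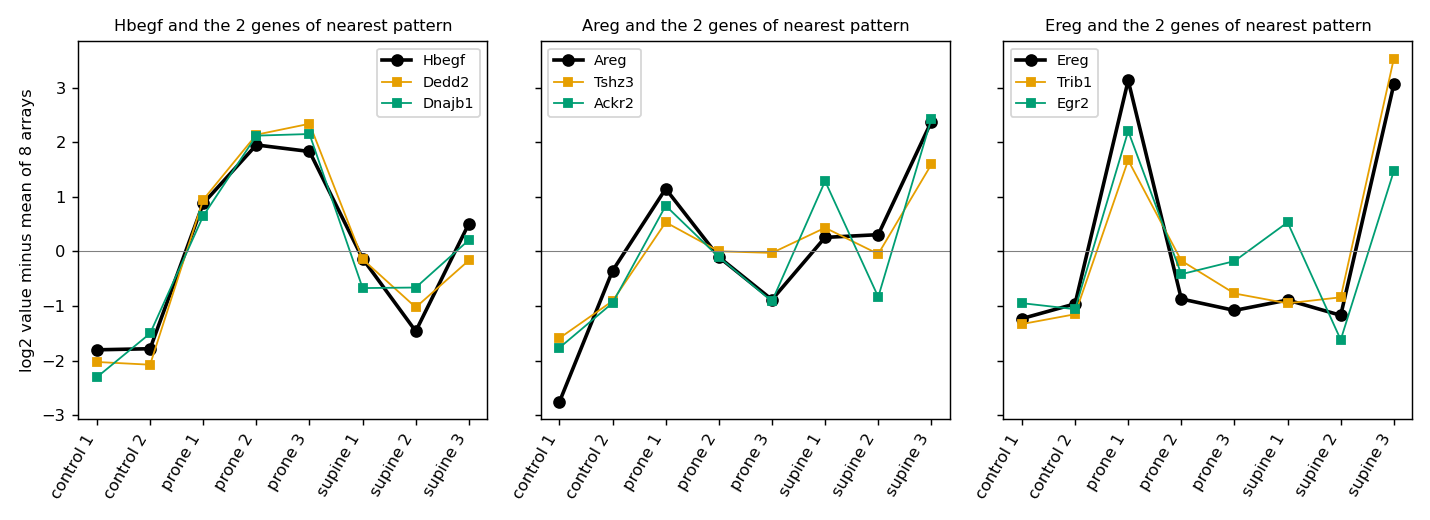
Log2 values minus the mean of the 8 arrays for Hbegf, Areg and Ereg (black) and the 2 genes nearest to each (colours), array by array. Hbegf peaked on prone replicates 2 and 3, Areg on supine replicate 3, and Ereg on prone replicate 1 and supine replicate 3.

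The rest of the pathway was read from 5 lists of 70 other genes, of which 50 were tested. None of the 50 passed after adjustment in any comparison. At an unadjusted p under 0.05 there were 9 in prone (18%), 7 in supine (14%) and 10 in all ventilated lungs (20%), close to the shares over all probe sets given above. Their median difference was 0.18 in prone and 0.03 in supine lungs.

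Of the other ErbB ligands and receptors, 2 of 7 were tested. Egf, the founding ligand, read 5.67 and 5.50 in controls and 5.72 to 7.42 in ventilated lungs, with a prone difference of 0.80 ± 0.51. Nrg1, a ligand of ERBB3 and ERBB4, read 4.07 and 4.03 against 4.41 to 6.09, with a prone difference of 0.93 ± 0.60. Over all ventilated lungs the adjusted p was 0.385 for Egf and 0.423 for Nrg1. Nrg1 passed the filter on low values only through prone replicate 3 and supine replicate 3, and its other 6 values were under that floor.

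The shedding list (8 of 10 tested) had 1 gene at an unadjusted p under 0.05 in prone lungs, Adam8, a metalloprotease of leukocytes, and 0 in supine lungs. That threshold took 17.7% and 15.2% of all tested probe sets. Adam8 read 9.05 and 8.74 in controls, 9.65, 12.17 and 10.07 in prone and 9.98, 10.74 and 10.48 in supine lungs, higher by 1.62 ± 0.63 over all ventilated lungs (adjusted p = 0.231). Timp3, an inhibitor of ADAM17, was lower in all ventilated lungs by -0.76 ± 0.38 (adjusted p = 0.32). Rhbdf1, which encodes iRhom1, a carrier that brings ADAM17 to the cell surface, stood at 0.78 ± 0.40 in supine lungs (adjusted p = 0.385). Between positions the metalloproteases Adam19 and Adam15 came first by p, at 0.75 ± 0.49 and 0.35 ± 0.25 in supine against prone lungs (adjusted p = 0.942 for both).

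Among 15 tested genes of adaptors, Ras-ERK and PI3-kinase signalling, 2 were higher at an unadjusted p under 0.05 in each comparison with controls and 0 lower. That share is no larger than the 17.7%, 15.2% and 19.2% of all tested probe sets, and the 2 genes are named by the rule of smallest p. Sos1, the exchange factor that activates Ras, read 9.68 and 9.38 in controls and 10.34 to 10.84 in ventilated lungs, a difference of 1.08 ± 0.27 (adjusted p = 0.12). Stat3, a transcription factor that EGFR and cytokine receptors activate, read 10.41 and 10.20 against 11.12 to 12.51, a difference of 1.52 ± 0.38 (adjusted p = 0.12). Between positions Map2k2, an ERK kinase, and Akt1, a kinase of the PI3-kinase branch, came first by p, at 0.62 ± 0.46 and 0.47 ± 0.40.

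Of the 11 tested feedback inhibitors other than Errfi1, 0 were higher at that threshold in any comparison with controls. Lrig1, which promotes breakdown of ErbB receptors, was the 1 lower gene in supine and in all ventilated lungs, and 0 were lower in prone lungs. Of all tested probe sets the threshold took 17.7% in prone, 15.2% in supine and 19.2% in all ventilated lungs. Lrig1 read 10.58 and 10.44 in controls and 8.98 to 10.27 in ventilated lungs, at -1.02 ± 0.40 (adjusted p = 0.233). Cbl, a ubiquitin ligase for EGFR, stood at -0.70 ± 0.38 in prone lungs (adjusted p = 0.386), and in supine lungs Spry2, a brake on Ras signalling, at 0.45 ± 0.48. Spry1, its relative, stood at -0.73 ± 0.37 in supine against prone lungs, and Cbl at 0.53 ± 0.34.

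ERK-responsive transcripts (14 of 16 tested) split in both directions. In prone lungs 3 were higher (Egr1, Maff and Myc) and 3 lower (Klf10, Etv5 and Ccnd1) at an unadjusted p under 0.05. In supine lungs 3 were higher (Myc, Fosl1 and Maff) and 1 lower (Etv5). Of all tested probe sets that threshold took 17.7% in prone (1296 higher, 1693 lower) and 15.2% in supine lungs (1213 higher, 1360 lower). Fosl1, Klf10 and Ccnd1 fall outside the naming rule and were named after their values were seen. Fosl1 passed the filter only through ventilated arrays, since the controls read 2.52 and 2.39, so it could be called only as higher. Myc, a growth factor target, read 9.56 and 9.27 in controls and 10.31 to 12.47 in ventilated lungs, and Maff, a small MAF factor, 6.89 and 7.20 against 7.63 to 10.52. The list's median was 1.29 in prone and 0.07 in supine lungs. Egr1, an early zinc finger factor, read 11.73 and 10.32 in controls, 14.12, 13.90 and 14.35 in prone and 12.87, 11.03 and 13.72 in supine lungs, and in prone lungs it was 3.09 ± 0.78 higher (adjusted p = 0.129). Etv5, an ETS factor that FGF and EGF signalling raise in development, read 9.77 and 9.92 in controls and 5.09 to 8.66 in ventilated lungs, at -2.82 ± 0.88 (adjusted p = 0.165).

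Between positions 3 ERK-responsive transcripts were lower in supine lungs at an unadjusted p under 0.05 and 0 higher. They were the only such genes among the 50 of the pathway (6%), against 4.09% of all tested probe sets, of which 251 were lower and 440 higher. Junb, a subunit of AP-1, read 11.82, 10.90 and 10.66 in prone against 10.58, 9.06 and 7.71 in supine lungs, a difference of -2.01 ± 0.69. Fos, its partner, stood at -1.94 ± 0.78, and Phlda1 was named after its values were seen, at -1.05 ± 0.42. All 3 had adjusted p = 0.942.

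**Figure D4:**
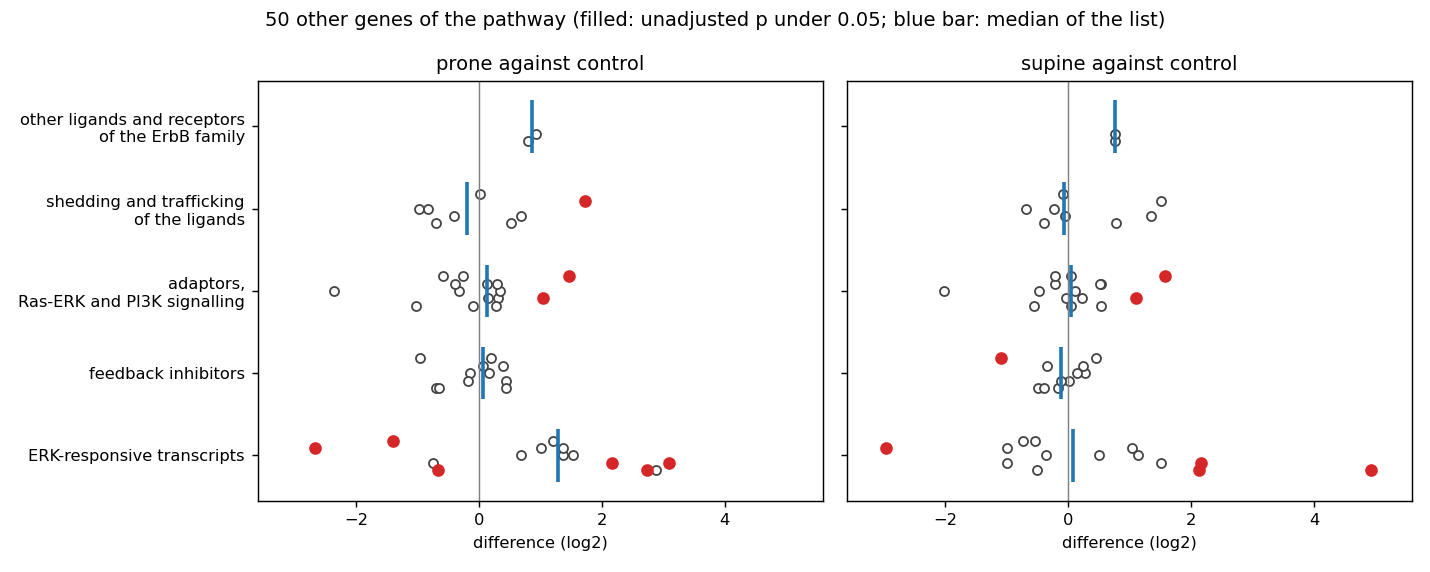
Difference on the log2 scale for 50 other pathway genes in prone and supine lungs against the same 2 controls, 1 point per gene, with filled points at an unadjusted p under 0.05 and the list median as a bar. The list of ERK-responsive transcripts had its median at 1.29 in prone and 0.07 in supine lungs, and in the other lists most points lay within 1 log2 unit of 0.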

How the data were processed

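Lung RNA of 8 rats, 300 ng of total RNA each, was amplified, labelled with biotin and hybridised to 1-colour Affymetrix rat arrays, per the labels' protocols. The values the authors deposited are log2 summaries per probe set. Per the submitters' processing notes they were made with GCRMA, which corrects background, equalises the arrays' quantiles and combines probes, and with Partek 6.5. No source used here states other filters. No detection calls were used, so low values cannot be told from background. Array medians were 7.77 to 7.95, and all 8 columns were matched to samples by name.

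Gene symbols are those of GEO's platform annotation, which gave 1 symbol to 13155 tested probe sets, several to 319 and none to 3422. Of the member probe sets, 10 of 10 had identifiers in RefSeq (GRCr8), with 0 symbols changed. The 28 control probe sets were set aside, and 16896 of the others, at log2 5 or above on at least 2 arrays, were tested; 3318 were not. limma 3.58.1 in R 4.3.3 fitted 1 mean per group over 8 arrays (5 residual and 2.51 prior degrees of freedom), two-sided, with Benjamini-Hochberg adjustment over all tested probe sets and a threshold of 0.05. It was tested on simulated data, and no outcome of that is given or used here. Errors after ± are standard errors unless SD is stated. For a gene with several probe sets the one with the highest mean stood for it. The members, lists, naming rule (all members, the 2 pathway genes with the smallest p per list and comparison, the 2 nearest patterns) and tests were chosen with earlier results of these data known. Summed marker levels are log2 of the summed linear values.

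The titles' replicate numbers were checked as a pairing: same-numbered prone and supine arrays had deviations from their group means that correlated at 0.721, 0.293 and 0.196 over tested probe sets, and those with controls at 0.109 to 0.333. All were over 0.1, and by that rule the numbers could pair the arrays. The reported tests did not use this pairing, and the replicate block was run only as an alternative. With 2 controls the deviations mirror each other, such as 0.213 and -0.213 for controls 1 and 2 with prone 1. The control correlations are thus not separate checks. Some arrays of different number correlated as much or more, prone 3 with supine 2 at 0.404, control 2 with prone 3 at 0.207 and prone 2 with supine 3 at 0.189, so the pairing is uncertain. Between arrays r was 0.789 to 0.983, so no array repeated another. Alternatives were the filter, centring, quantile normalization, replicate block, groups in the fit, intensity trend, array quality weights, leaving out each array, and the mean of a gene's probe sets.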

Additional observations from a re-analysis of the deposited data

How the results depend on the processing

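Of 532 alternatives of a member's difference, 503 kept direction and side of the threshold, 9 passed it in the same direction and 20 turned sign. The 9 concern Hbegf, Erbb2 and Errfi1 and are given in the paragraphs on those genes. The number of probe sets that passed depended heavily on the fit. It was 9 in prone, 9 in supine and 24 in all ventilated lungs against control. With no filter on low values it was 35, 18 and 118, and with a filter at log2 7 it was 0, 0 and 5. The replicate block gave 0 in each comparison, the intensity trend 0, 0 and 11, and array quality weights 5724, 36 and 4704. These weights were 4.67 for each control and 0.28 to 1.81 for ventilated arrays. With only the groups compared it was 119 in prone and 0 in supine lungs. This last alternative was not run for all ventilated lungs, which already use every array. Leaving out 1 array gave 0 to 115, 0 to 153 and 0 to 381, and 0 to 3 for supine against prone.

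Members at an unadjusted p under 0.05 numbered 2, 2, 3 and 1 in the order prone, supine, all ventilated, and supine against prone. With the replicate block they were 1, 0, 1 and 1, and it changed no member's call after adjustment. In supine lungs quantile normalization and only the groups compared each gave 1. Leaving out 1 array gave 1 to 3, 0 to 4, 1 to 4 and 1 to 3. The 20 sign changes were in small or scattered differences, and the cause was not tested. Adam17 in prone lungs was -0.03 with the replicate block, -0.10 with array weights, and -0.15 to 0.18 when 1 array was left out. It was -0.07 to 0.41 in supine, -0.01 to 0.24 in all ventilated, and -0.12 to 0.36 in supine against prone lungs. In supine against prone lungs, array weights gave 0.80 for Ereg and 0.01 for Tgfa. Leaving out 1 array there gave -1.42 to 1.31 for Ereg, -0.34 to 0.32 for Tgfa, -0.41 to 0.10 for Egfr, -0.08 to 0.89 for Erbb2 and -0.87 to 0.17 for Errfi1. With 1 array left out of the controls, the lone control is assumed to vary like the other groups. Low values, such as those of Ereg on 6 arrays and the second Egfr probe set, carry little information on differences.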
